A study of Mus musculus with 4 samples.

Results

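The voltage-gated calcium and sodium channels examined here are the 40 genes, of 24421 in the deposited table, whose symbols name a pore-forming or auxiliary subunit of these channels or the sodium leak channel *Nalcn*. The members were picked by a pattern of symbols, and they divide into 20 pore subunits and 20 auxiliary subunits. They were measured by RNA-seq of GFP+ cells sorted from neural tubes of E11.5 mouse embryos. Cells came from *Prdm13* GFP/+ embryos (labelled Het) or from *Prdm13* GFP/GFP embryos (labelled Homo), and all carry at least 1 allele in which GFP is placed in *Prdm13* and disrupts it, so that GFP marks cells in which the *Prdm13* locus is active. Both groups therefore carry a mutant allele, and no wild type cells were included in these libraries. Each genotype is a single RNA pool, of 7 embryos for GFP/+ and 9 for GFP/GFP, sequenced as 2 technical libraries. Standard deviations and tests below (n = 2 libraries per genotype) hold the variation of library making and sequencing and none between embryos. The comparison asks how the set of channel transcripts differs between GFP+ cells with and without PRDM13, a transcriptional repressor of the dorsal neural tube. GFP/GFP cells carry more copies of GFP than GFP/+ cells, and whether the sort took the same cells from both was not tested.

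A voltage-gated calcium channel is built around one large α1 protein that forms the pore and senses voltage. High-voltage types take up a cytoplasmic β subunit and an extracellular α2δ subunit, which govern how many channels reach the membrane, whereas T-type pores open near the resting potential and can work alone. The γ family is mixed, because some of its products belong to the muscle calcium channel while others, the TARPs, are auxiliary subunits of AMPA-type glutamate receptors. Sodium channels likewise have an α pore and single-pass β subunits, and NALCN carries a background sodium leak. In young neurons these channels set the first excitability and calcium entry, before synapses have formed.

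The table holds RPKM, which scales read numbers by the exon length of the gene and by library size, so levels of different genes can be compared. Effective library sizes solved from the values ran from 11572778 to 18323396 reads. Of the 40 channel genes, 19 averaged 1 RPKM or more in GFP/+ or in GFP/GFP and were tested, together with all other such genes (12046), by limma on log2(RPKM + 0.1). Fold changes on this scale understate those of weakly expressed genes. Calls required a Benjamini-Hochberg adjusted p below 0.05 together with a difference of 1.5-fold or more. By this rule 6 channel genes were called, 3 higher (*Cacna2d1*, *Scn3b* and *Cacna1g*) and 3 lower (*Cacng3*, *Cacna2d3* and *Cacna2d2*) in *Prdm13* GFP/GFP. That is 31.6% of the channel genes tested, beside 6.33% of all genes tested, with 3.65% higher and 2.67% lower. An adjusted p below 0.05 regardless of fold was reached by 9 channel genes, beside 19.7% of all genes tested. When all 24421 genes were fitted without the filter on RPKM, only *Scn3b* and *Cacna2d2* of the 6 were called, and the others had an adjusted p of 0.0509 (*Cacna2d3*) to 0.111 (*Cacna1g*). *Prdm13* itself had 113.9 and 126.8 RPKM in GFP/+ and 309.5 and 324.5 RPKM in GFP/GFP. Its GFP allele still gives reads, so this level does not measure working *Prdm13*.

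Libraries of the genotypes also differed in the markers of the neurons they hold. The summed RPKM of 8 dorsal inhibitory genes was 523.4 to 560.7 in GFP/+ and 99.5 to 105.7 in GFP/GFP. That of 7 dorsal excitatory genes was 30.4 to 33.3 and 195 to 200.6, and that of 10 pan-neuronal genes 1792 to 1839 and 2354 to 2448. The pan-neuronal sum was carried mostly by *Tubb3*, with means of 1040 and 1318 RPKM. Of the 10 pan-neuronal genes, 4 were called higher and 1, *Snap25*, was called lower (log2 fold change -0.63, adjusted p = 0.00061). The 9 genes of neural progenitors summed to 2151 to 2181 in GFP/+ and 2132 to 2206 in GFP/GFP, a sum carried mostly by *Vim* and *Fabp7*. Of these 9, *Sox1* was called lower (log2 fold change -0.68), and *Sox2* (-0.48) and *Hes5* (0.42) had an adjusted p of 0.00214 and 0.0218 under the required fold. In bulk RNA of this kind, fewer cells of a type and less RNA per cell cannot be told apart, and the part of these markers in the channel results was not tested.

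The promoters of the 3 called α2δ genes are shown because members of this family moved in opposite directions. Each sequence is the 250 bases before an annotated RefSeq start (GRCm38.p6), 5′ to 3′ on the strand of the gene, and capitals mark E-boxes (CANNTG, the motif of bHLH factors such as PTF1A, which reads the same on both strands as a pattern). That start is not the outermost one of the gene. The windows of *Cacna2d1* and *Cacna2d3* lie inside the gene spans given below, and that of *Cacna2d2* overlaps the beginning of its span. Bases before the outermost starts were not examined in full.
Cacna2d1 (chr5:15934441-15934690, plus strand): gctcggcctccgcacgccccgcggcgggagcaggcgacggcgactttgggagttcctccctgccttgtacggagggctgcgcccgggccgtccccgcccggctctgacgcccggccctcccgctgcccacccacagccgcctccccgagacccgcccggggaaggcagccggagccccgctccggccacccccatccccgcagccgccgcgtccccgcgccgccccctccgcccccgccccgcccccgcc
Cacna2d2 (chr9:107399630-107399879, plus strand): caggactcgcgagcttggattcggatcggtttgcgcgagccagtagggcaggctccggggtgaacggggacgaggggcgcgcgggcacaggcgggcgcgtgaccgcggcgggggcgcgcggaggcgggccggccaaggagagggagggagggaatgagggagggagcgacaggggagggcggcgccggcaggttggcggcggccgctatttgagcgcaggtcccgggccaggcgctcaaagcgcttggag
Cacna2d3 (chr14:29721865-29722114, minus strand): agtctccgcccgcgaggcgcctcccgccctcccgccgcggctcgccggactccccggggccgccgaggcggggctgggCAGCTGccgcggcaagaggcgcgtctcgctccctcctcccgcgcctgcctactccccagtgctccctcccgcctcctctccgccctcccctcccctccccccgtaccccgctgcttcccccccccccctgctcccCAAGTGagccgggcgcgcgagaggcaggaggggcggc
An E-box was found in 66.2% of the 32851 promoter windows of the reference table and its CAGCTG form in 13%. The windows of *Cacna2d1* and *Cacna2d2* held none, and that of *Cacna2d3* held 2 E-boxes, of which 1 was CAGCTG. These matches are descriptions of the letters in the window and say nothing of binding. The 3 α2δ promoters were rich in G and C, with 82.4% in *Cacna2d1*, 74.4% in *Cacna2d2* and 80% in *Cacna2d3*, where the median window had 52.4%. They contained 36, 34 and 30 CpG dinucleotides, against a median of 6.

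The α2δ subunits, glycosylated extracellular proteins that traffic calcium channels, went in both directions. The 3 members that passed the RPKM filter were called, 1 higher and 2 lower, beside 6.33% of all genes tested. *Cacna2d3* (gene ID 12294, at 28904943 to 29722775 on chromosome 14 of GRCm38) had 17.3 and 15.6 RPKM in the GFP/+ libraries and 3.33 and 3.28 RPKM in the GFP/GFP libraries, from 739, 1058, 200 and 166 reads. Both GFP/GFP libraries lay far under both GFP/+ libraries. The mean RPKM of *Cacna2d3* fell 4.98-fold, and limma gave a log2 fold change of -2.28 (standard error [SE] 0.0762, adjusted p = 1.41e-05). *Cacna2d2* (gene ID 56808, chromosome 9 from 107399733 to 107529346), the most abundant member in both genotypes, had 27.2 and 27.2 RPKM in GFP/+ and 16.0 and 15.6 RPKM in GFP/GFP. Its libraries did not overlap either, and the difference, 1.72-fold lower, gave a log2 fold change of -0.78 (SE 0.0513, adjusted p = 0.000228).

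*Cacna2d1* (gene ID 12293, chromosome 5 from 15934264 to 16374511) moved the other way. It had 3.15 and 2.91 RPKM in GFP/+ and 9.34 and 8.84 RPKM in GFP/GFP, from 273, 399, 1138 and 906 reads. The GFP/GFP libraries were each higher than either GFP/+ library, and the mean rose 3.003-fold (log2 fold change 1.56, SE 0.0835, adjusted p = 8.75e-05). *Cacna2d4*, known from retina, had at most 2 reads in any library and lies under the floor of 3 reads used here for detection.

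The makeup of the α2δ pool differed between genotypes. *Cacna2d3* supplied 35.2% ± 1.45 of α2δ RPKM in GFP/+ and 11.7% ± 0.14 in GFP/GFP (SD, n = 2). The share of *Cacna2d1* was 6.48% ± 0.17 and 32.2% ± 0.57. *Cacna2d2* held the largest share in both, 58.3% ± 1.63 and 56% ± 0.39. The summed α2δ level was 47.7 and 45.7 RPKM in GFP/+ and 28.6 and 27.8 RPKM in GFP/GFP, 0.604 times as high. In mean RPKM the order of the family went from *Cacna2d2*, *Cacna2d3*, *Cacna2d1* in GFP/+ to *Cacna2d2*, *Cacna2d1*, *Cacna2d3* in GFP/GFP.

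**Figure D1:**
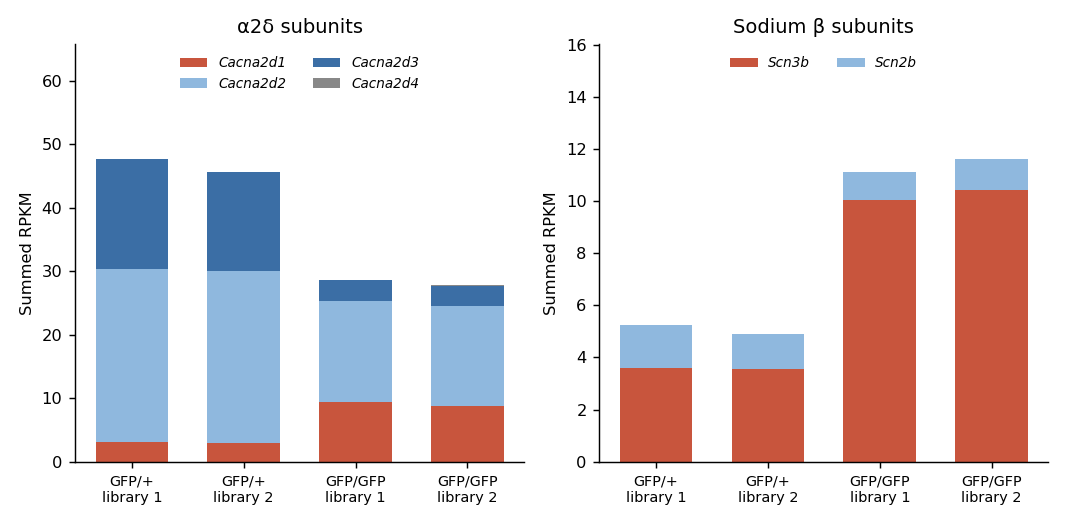
Summed RPKM of the α2δ genes (left) and of the sodium channel β genes *Scn3b* and *Scn2b* (right) in each of the 4 libraries, stacked by gene from 0. The α2δ stack is lower in both GFP/GFP libraries and holds more *Cacna2d1* and less *Cacna2d3*, and the sodium β stack is higher in both GFP/GFP libraries, with *Scn3b* as its main part.

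The sodium channel β subunits, small membrane proteins with an immunoglobulin fold that tune gating and adhesion, were dominated by *Scn3b* (gene ID 235281, chromosome 9 from 40269216 to 40291618). *Scn3b* had 3.61 and 3.58 RPKM in GFP/+ and 10.1 and 10.4 RPKM in GFP/GFP, with 177, 278, 693 and 605 reads. The GFP/GFP libraries agree closely and lie well above the controls, and the mean rose 2.85-fold (log2 fold change 1.49, SE 0.0715, adjusted p = 5.41e-05). *Scn2b* was measured at 1.65, 1.33, 1.08 and 1.19 RPKM in the same order and was not called (log2 fold change -0.36, SE 0.2, adjusted p = 0.259). *Scn4b* had 1 read in each GFP/+ library and none in GFP/GFP. Sodium β transcripts together summed to 5.197 ± 0.19 RPKM in GFP/+ and 11.53 ± 0.39 RPKM in GFP/GFP, 2.22 times as high, and *Scn3b* made up 69.2% and 88.8% of them.

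The γ and TARP genes ranged from abundant transcripts to *Cacng3*, the channel gene with the largest fall. *Cacng3* (gene ID 54376, chromosome 7 from 122671744 to 122769393), which encodes a TARP, had 2.32 and 1.75 RPKM in GFP/+ and 0.363 and 0.24 RPKM in GFP/GFP, from 82, 98, 18 and 10 reads. Its GFP/+ libraries were uneven, yet each was several times as high as either GFP/GFP library. The mean was 6.76-fold lower (log2 fold change -2.42, SE 0.304, adjusted p = 0.0034), and this SE is the widest of the 6 called genes. *Cacng7* and *Cacng4*, TARP family genes, were the most abundant of this family at 61.4 ± 6.56 and 45.1 ± 1.42 RPKM in GFP/+ and 54.4 ± 6.05 and 54.1 ± 4.34 RPKM in GFP/GFP. The libraries of *Cacng7* overlapped between genotypes (adjusted p = 0.256). The reads recovered for *Cacng7* share a common factor that its annotated length fixes only roughly, so its read numbers are uncertain while its RPKM is not. *Cacng4* was higher in both GFP/GFP libraries (log2 fold change 0.26, SE 0.0661, adjusted p = 0.0383), short of the 1.5-fold required. *Cacng2*, the stargazin gene, and *Cacng8* lay between 1.37 and 2.37 RPKM in all libraries and were not called. The log2 fold change of *Cacng8* was -0.04 and changed sign when 1 library was left out. *Cacng1*, a skeletal muscle subunit, had 3 or 4 reads per library, and *Cacng6* 0 to 6.

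The calcium β subunits, which bind high-voltage pores inside the cell, gave no call among 3 genes tested. *Cacnb3* was the major form, with 49.1 and 51.5 RPKM in GFP/+ and 55.9 and 63.4 RPKM in GFP/GFP (log2 fold change 0.24, SE 0.0697, adjusted p = 0.0551). *Cacnb1* followed at 17.8 ± 0.86 and 19.6 ± 0.22 RPKM (adjusted p = 0.154). The annotated span of *Cacnb1* overlaps that of *Rpl19*, a ribosomal protein gene at 714.1 and 718.6 RPKM in GFP/+. How reads in the overlap were assigned is not given in the sources used here. *Cacnb4* had 2.01 ± 0.099 and 1.76 ± 0.00215 RPKM (adjusted p = 0.404). *Cacnb3* supplied 71.4% of β RPKM in GFP/+ and 73% in GFP/GFP, so this family kept nearly the same makeup in both pools.

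**Figure D2:**
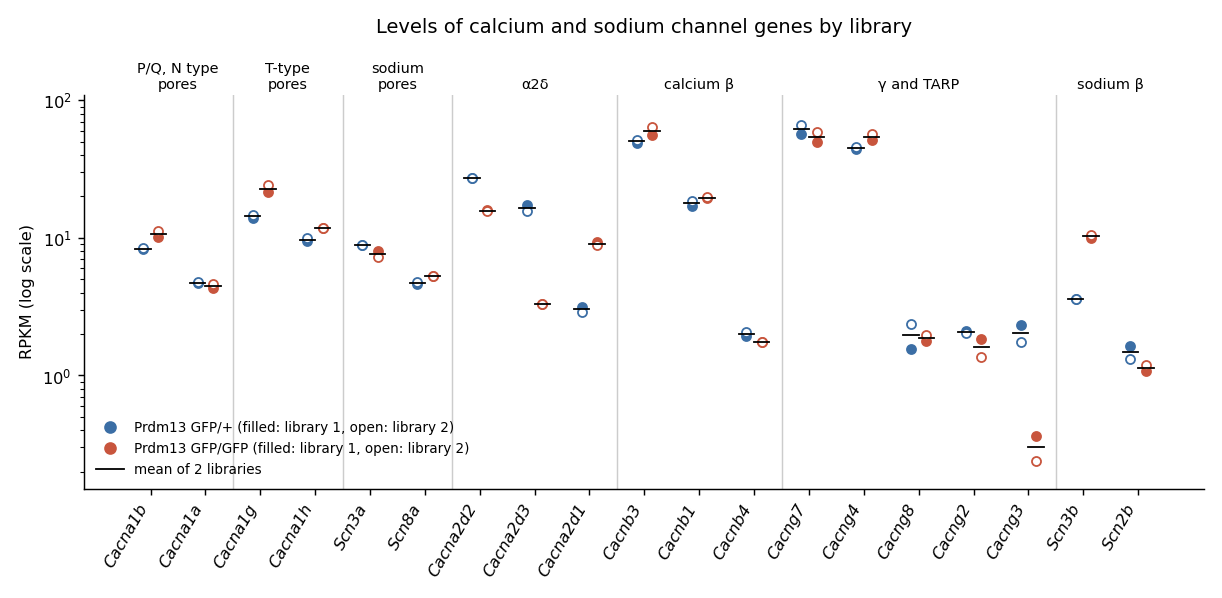
RPKM on a log axis of the 19 channel genes tested, grouped by subunit class, with a point for each library and a bar at the mean of the 2 libraries of a genotype. The genotypes stand apart most at *Cacng3*, *Cacna2d3*, *Cacna2d1* and *Scn3b*, and the libraries overlap at *Cacng7* and *Cacng8*.

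Among the calcium pores, the T-type genes were the most abundant and the only class with a call. *Cacna1g* (gene ID 12291, chromosome 11 from 94408391 to 94474400) had 13.9 and 14.8 RPKM in GFP/+ and 21.5 and 24.1 RPKM in GFP/GFP, from 1325, 2224, 2873 and 2715 reads. Both GFP/GFP libraries were higher, though they differed from each other by more than the GFP/+ libraries did. The mean rose 1.59-fold (log2 fold change 0.66, SE 0.0731, adjusted p = 0.00192). This lies near the 1.5-fold limit of 0.58 on the log2 scale, and without the second GFP/GFP library the value was 0.58 and no longer called. *Cacna1h*, its T-type paralogue, had 9.42 and 10.03 RPKM in GFP/+ and 11.8 and 11.9 RPKM in GFP/GFP (log2 fold change 0.28, SE 0.0629, adjusted p = 0.026), under the required fold. *Cacna1i* had 0.15 to 0.214 RPKM. Summed T-type RPKM was 24.2 ± 1.04 in GFP/+ and 34.8 ± 1.91 in GFP/GFP, 1.44 times as high.

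The pores that drive transmitter release were present and not called. *Cacna1b*, the N-type pore, had 8.30 and 8.41 RPKM in GFP/+ and 10.1 and 11.2 RPKM in GFP/GFP (log2 fold change 0.34, SE 0.0733, adjusted p = 0.0218), again short of 1.5-fold. *Cacna1a*, the P/Q-type pore, had 4.73 ± 0.064 and 4.45 ± 0.197 RPKM (adjusted p = 0.509). *Cacna1e*, the R-type pore, stayed at 0.0817 to 0.138 RPKM. Of the L-type pores, *Cacna1c* had 0.72 to 0.797 RPKM and *Cacna1d* 0.36 to 0.617 RPKM over the 4 libraries, under the level for testing. *Cacna1f*, the retinal form, and *Cacna1s*, the skeletal muscle form, had at most 3 reads in any library.

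Of the 9 sodium pores, 2 passed the RPKM filter, and they gave no call either. *Scn9a*, a sodium pore under the filter, was called higher in the test of recovered reads given below. *Scn3a*, a form typical of embryonic neurons, had 8.91 and 8.92 RPKM in GFP/+ and 8.09 and 7.29 RPKM in GFP/GFP (log2 fold change -0.21, SE 0.0745, adjusted p = 0.0956). *Scn8a* had 4.71 ± 0.089 and 5.27 ± 0.0028 RPKM (adjusted p = 0.206). *Scn1a* was at 0.326 to 0.474 RPKM and *Nalcn* at 0.267 to 0.345 RPKM. The pattern of symbols leaves out *Scn2a1*, an older name of *Scn2a*, which is no member here. It had 2.11 ± 0.13 and 1.56 ± 0.098 RPKM (log2 fold change -0.41, adjusted p = 0.103). Summed over the 9 sodium pores, RPKM was 14.4 ± 0.035 in GFP/+ and 13.9 ± 0.56 in GFP/GFP.

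Pore and auxiliary subunits were compared as classes. Of the 20 pore genes, 6 were tested and 1 was called, higher. Of the 20 auxiliary genes, 13 were tested and 5 were called, 2 higher and 3 lower. Among all genes tested the share called was 6.33%. The median log2 fold change was 0.22 over the pores and -0.18 over the auxiliary subunits, beside 0.01 over all genes tested. The median absolute log2 fold change was 0.25 and 0.36, and 0.13 over all genes. Summed pore RPKM was 52.4 and 54.3 in GFP/+ and 63.7 and 67.3 in GFP/GFP, 1.23 times as high. Summed auxiliary RPKM was 228.9 and 242.1 in GFP/+ and 223.8 and 245.8 in GFP/GFP, and these ranges overlap. The γ and TARP genes, 5 of the 13 tested, supplied a mean of 113.1 RPKM in GFP/+ and 113.4 RPKM in GFP/GFP to this sum. The TARPs among them are subunits of AMPA receptors, so the auxiliary class does not hold channel subunits alone. Summed RPKM in GFP/GFP was 0.604 times that in GFP/+ for α2δ, 1.157 times for calcium β and 2.218 times for sodium β. The difference between pores and auxiliary subunits was not tested, since their genes are not replicates of a condition. The medians differed by 0.39 here, by 0.18 with voom and by 0.014 when all 40 genes were fitted without the filter. Over the channel genes tested, 17 of 19 had libraries that did not overlap between genotypes, 9 higher and 8 lower in GFP/GFP, where 62.1% of all genes tested had none overlapping. With 2 libraries a side, the smallest two-sided p that exact permutation allows is 0.333, so no single gene was tested that way.

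**Figure D3:**
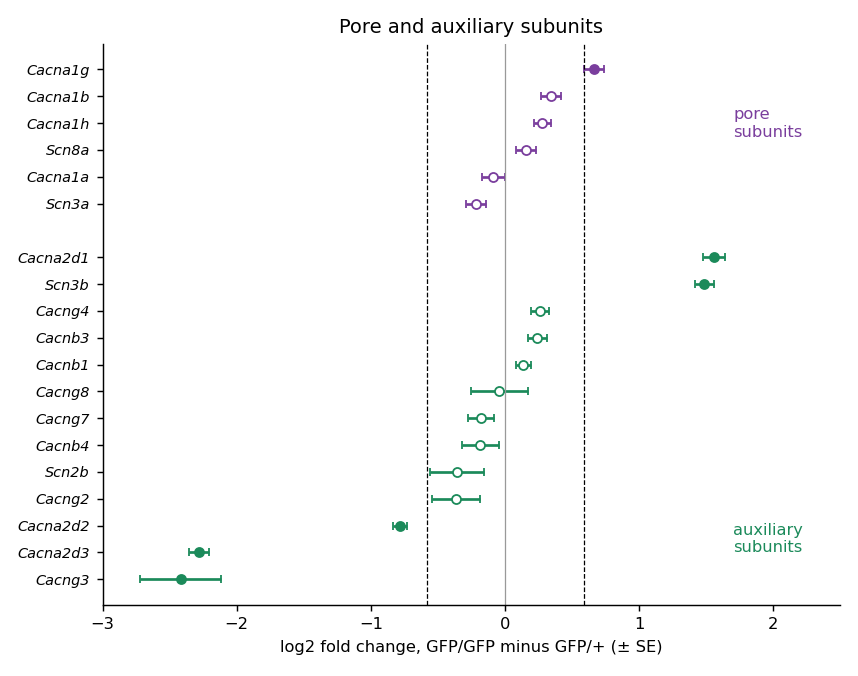
Log2 fold change of GFP/GFP minus GFP/+ with its SE for the 6 pore and 13 auxiliary genes tested, filled where called, with dashed lines at a fold of 1.5. The auxiliary genes spread from -2.42 to 1.56 and the pores from -0.21 to 0.66.

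**Figure D4:**
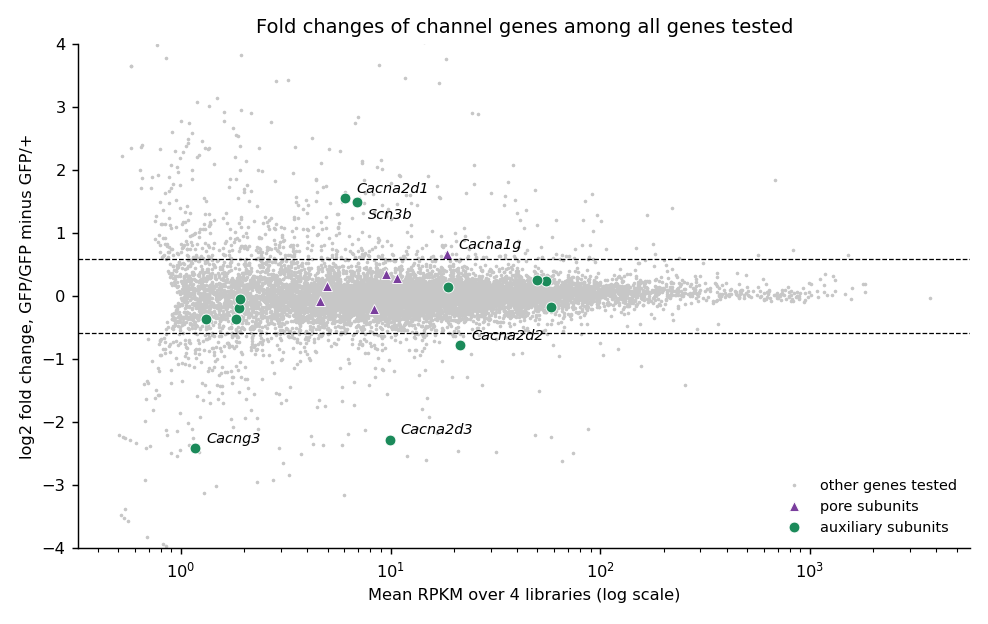
Log2 fold change against mean RPKM (log axis) for all genes tested (grey, 12 of them beyond the vertical range), pores (triangles) and auxiliary subunits (circles), with dashed lines at a fold of 1.5. The 6 called genes are named and lie outside the dashed lines.

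The remaining 21 channel genes had a mean RPKM under 1 in both genotypes and were outside that test. For them, reads were recovered from the steps of RPKM and tested by limma voom with all genes of at least 10 reads (15224), a test chosen after the data were seen. It covered 32 channel genes, 13 of them under the RPKM filter, and called 8, beside 6.65% of all genes. Of these 8, 5 were higher and 3 lower, beside 3.64% and 3.01% of all genes. All 6 genes called on RPKM were among them, with the same direction. The additional calls were *Cacng5* and *Scn9a*.

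*Cacng5* (gene ID 140723, chromosome 11 from 107874604 to 107915055), a TARP family gene, had 9 and 26 reads in GFP/+ and 63 and 43 in GFP/GFP, or 0.203, 0.37, 1.01 and 0.82 RPKM. The genotypes do not overlap, and voom put the log2 fold change at 1.62 (SE 0.325, adjusted p = 0.00133). *Scn9a* (gene ID 20274, chromosome 2 from 66480080 to 66635114), a pore of pain-sensing neurons, had 35 and 39 reads in GFP/+ and 76 and 67 in GFP/GFP. The libraries do not overlap (voom log2 fold change 0.96, SE 0.225, adjusted p = 0.00469). Sensory neurons of the dorsal root ganglia are known to express it, and the summed RPKM of 8 sensory neuron markers was 19 to 19.5 in GFP/+ and 23.8 to 24.6 in GFP/GFP. Of these markers *Ntrk3* was among those called higher, whereas *Runx1*, *Runx3*, *Avil* and *Prph* each stayed under 1 RPKM in all libraries. The sensory neuron pores *Scn10a* and *Scn11a* had at most 1 read per library. None of the remaining genes of this set was called by voom. *Scn1a* had a log2 fold change of -0.46, and *Cacng6* had 2.13, from 0 and 3 reads in GFP/+ and 6 and 6 in GFP/GFP.

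**Figure D5:**
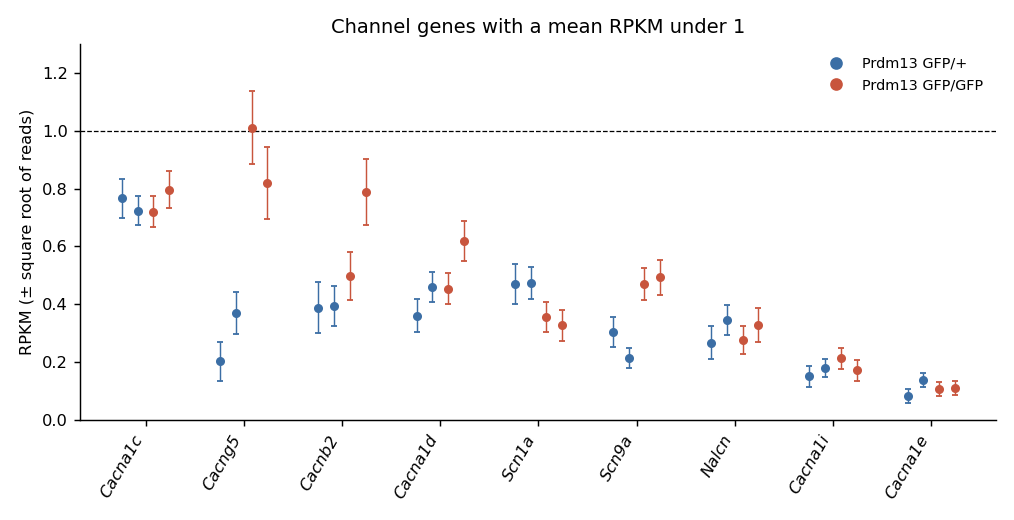
RPKM of the 9 channel genes under the filter that had at least 30 reads over the 4 libraries, a point for each library (GFP/+ left, GFP/GFP right) with the square root of the reads as error, which covers counting only. *Cacng5* and *Scn9a* are higher in both GFP/GFP libraries, and the dashed line marks 1 RPKM.

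At the other end, 8 channel genes had at most 3 reads in every library. They are *Cacna1f*, *Cacna1s*, *Cacna2d4*, *Scn4a*, *Scn4b*, *Scn7a*, *Scn10a* and *Scn11a*, and none was detectable above the floor of 3 reads at this depth. *Cacna1s* and *Scn4a* are the skeletal muscle pores. The skeletal muscle markers *Myod1*, *Myog*, *Myf5* and *Ckm* lay at 0 to 0.0831 RPKM, and the 8 muscle markers summed to 5.12 to 5.71 RPKM in GFP/+ and 5.28 to 5.9 RPKM in GFP/GFP, most of it *Mylpf*. Cardiac markers summed to at most 0.22 RPKM.

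Several channel genes lie side by side in the genome, and levels differed widely between neighbours. On chromosome 2, *Scn3a*, *Scn1a*, *Scn9a* and *Scn7a* stand with *Scn2a1* between 65457118 and 66784910. Their mean RPKM in GFP/+ was 8.92 for *Scn3a*, 0.472 for *Scn1a*, 0.259 for *Scn9a* and 0.0059 for *Scn7a*. By voom the log2 fold changes of *Scn3a* and *Scn1a* were -0.21 and -0.46, and that of *Scn9a* 0.96. On chromosome 11, *Cacng1*, *Cacng4* and *Cacng5* share 212 kb. *Cacng4* ran from 44.1 to 57.1 RPKM over the libraries, while *Cacng5* reached at most 1.01 RPKM and *Cacng1* at most 0.2155 RPKM. On chromosome 7, *Cacng7*, *Cacng8* and *Cacng6* share 104 kb with mean levels of 61.4, 1.97 and 0.035 RPKM in GFP/+. These clusters hold paralogues of similar sequence, and reads that fit more than one could be split between them.

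The wider set of channel partners was read from 6 lists. Of 45 partner genes tested, 5 were called higher and 8 lower, with a median log2 fold change of 0.03. Of all genes tested, 3.65% were called higher and 2.67% lower. The AMPA receptor subunits, to which the TARPs attach, gave 3 of the 8 lower calls, with 3 of 4 genes tested. *Gria1* had 1.84 and 1.85 RPKM in GFP/+ and 0.525 and 0.575 RPKM in GFP/GFP (log2 fold change -1.58, SE 0.217, adjusted p = 0.00466). *Gria3* and *Gria4* had log2 fold changes of -0.92 and -0.75, and *Gria2*, which limits calcium entry through the receptor, was not called at 0.17 (adjusted p = 0.15).

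Extracellular partners of α2δ subunits went both ways, with 2 of 5 called higher and 1 lower, beside 3.65% and 2.67% of all genes tested. Neurexins are presynaptic adhesion proteins that interact with α2δ, and *Nrxn3* had 7.93 and 8.11 RPKM in GFP/+ and 1.52 and 1.44 RPKM in GFP/GFP (log2 fold change -2.36, SE 0.0949, adjusted p = 2.7e-05). *Nrxn2* was not called at -0.15. *Thbs1*, a thrombospondin, was called higher at 1.17 from a level of 0.583 to 1.55 RPKM.

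Genes of calcium stores and clearance gave 2 calls of 8 tested, both higher, beside 3.65% of all genes. *Slc8a2*, a sodium-calcium exchanger, had 22.9 and 26.9 RPKM in GFP/+ and 55.6 and 59.9 RPKM in GFP/GFP (log2 fold change 1.21, SE 0.0831, adjusted p = 0.000272). *Atp2b4*, a plasma membrane calcium pump, rose by 0.67, whereas *Atp2b1*, another pump, had a log2 fold change of -0.49 and missed the required fold. Among 17 regulators and active zone tethers of calcium channels, *Camk2a* was called higher (0.76) and *Cabp1* and *Rimbp2* lower. The shares over all genes tested were 3.65% higher and 2.67% lower. *Cabp1*, a calcium-binding protein related to calmodulin, had 23.1 and 21.8 RPKM in GFP/+ and 5.94 and 8.73 RPKM in GFP/GFP (log2 fold change -1.62, SE 0.163, adjusted p = 0.00136). *Rimbp2*, which links calcium channels to release sites, had a log2 fold change of -0.85 (adjusted p = 0.0496), at the edge of the threshold.

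Of 9 anchors and partners of sodium channels only *Cntn1*, an adhesion protein, was called, at 2.22 and 2.55 RPKM in GFP/+ and 0.865 and 0.662 RPKM in GFP/GFP (log2 fold change -1.53, adjusted p = 0.00417). The share called over all genes tested was 6.33%. *Ank3*, the ankyrin that gathers sodium channels at the axon initial segment, had a log2 fold change of -0.28 (adjusted p = 0.019), under the required fold. In the NALCN complex *Fam155a* was called lower (4.43 and 4.41 RPKM against 2.88 and 2.91 RPKM, log2 fold change -0.595, adjusted p = 0.00684), and *Unc79* was not called at -0.13.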

How the data were processed

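GFP+ cells were sorted from E11.5 neural tubes and RNA was pooled by genotype, with 2 technical libraries of polyadenylated RNA per pool. Per the paper's methods and the labels, the authors aligned reads to mm10 with TopHat2 2.1.0, counted them on RefSeq exons with featureCounts, applied TMM in edgeR 3.6.8 and deposited RPKM. The values were used as deposited. After a pseudocount of 0.1, log2 values of the 12046 genes averaging 1 RPKM or more in a genotype entered a linear model in limma 3.58.1 (R 4.3.3) with an intensity-trended prior. Tests were two-sided and Benjamini-Hochberg adjusted over all of these genes. Calls needed adjusted p below 0.05 and 1.5-fold or more.

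RPKM values step in units worth a single read, and whole reads were solved for in 19193 of 19200 genes above 0 and in all 40 channel genes, with GENCODE vM21 exon lengths as a guide to common factors. The solved length was within 5% of the annotated exon length for 31 of the 40 channel genes. Where a length is unsure, reads can be off by such a factor. Reads served for limma voom and for a detection floor (3 reads in a library) that reflects counting error alone. Both tests were tried on reads simulated with a fixed spread that was not estimated from these data. The outcome is not used as support here. Coordinates and promoters are those of RefSeq on GRCm38 (promoters matched for 30 channel genes). Tables were handled in Python 3.11.15 and pandas 2.3.3.

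The members and lists were chosen with earlier results of these data known. Some genes and sequences are not reported here. The text otherwise names the channel genes, the called genes of the partner lists and, after their values were seen, some partners not called, *Rpl19*, *Scn2a1* and marker genes. Of the partner genes *Fam155b* was not found. Alternatives were pseudocounts of 1 and 0.01, other filters, scalings, priors and call rules, the replicate number as a block, and leaving out each library.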

Additional observations from a re-analysis of the deposited data

How the results depend on the processing

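The 6 calls were tried under 15 alternatives. Over 285 pairs of a tested channel gene and an alternative, 275 kept their direction and their side of the threshold. Most of these pairs belong to the 13 genes not called, whose fold changes lay under the required one. Alternatives that changed only the call rule could not change a direction. This count therefore says little about how firm the 6 calls are. Without the filter on RPKM, where 40 channel genes and all 24421 genes were tested, 1 channel gene was called higher (*Scn3b*) and 1 lower (*Cacna2d2*), and the largest adjusted p among the other 4 was 0.111. With no minimum fold, 6 were called higher, adding *Cacna1b*, *Cacna1h* and *Cacng4*, and 3 lower, beside 19.7% of all genes in either direction. By limma voom on recovered reads, 5 were called higher. Leaving out each library in turn gave 2 to 3 genes called higher and 3 called lower, and without the second GFP/GFP library *Cacna1g* was not called. *Cacng8*, at -0.04 with all libraries, ran from -0.328 to 0.242 leaving out each in turn, with 0.242 without the second GFP/+ library and 0.022 without the first GFP/GFP library. The median of the pores minus that of the auxiliary genes, 0.39, was 0.32 with a pseudocount of 1, 0.18 by voom, 0.014 without the filter on RPKM, and 0.28 to 0.42 leaving out each library, and the cause of these shifts was not tested. With the replicate number as a block, 3 channel genes were called higher, 3 lower, and the class difference was 0.39. The deviations of same-numbered libraries from their genotype means correlated at 0.0475, so the numbers were not taken to pair the libraries. Depth limits the values of genes with few reads, such as *Cacng3* with 18 and 10 reads in GFP/GFP.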
